A study of Homo sapiens with 4 samples.

Results

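TRiC (also called CCT) is the chaperonin of the eukaryotic cytosol, and the transcripts described here are those of its 8 subunit genes, TCP1, CCT2, CCT3, CCT4, CCT5, CCT6A, CCT7 and CCT8. They were found as the rows of the count table whose Ensembl IDs carry these symbols, 8 of 20263 rows, and all 8 passed the filter on low counts. MDA-MB-231, a line of triple-negative human breast cancer cells, was kept for 24 h with Rib_CA, which the series title calls a derivative of ribociclib, or with the solvent control DMSO. Ribociclib inhibits the cell cycle kinases CDK4 and CDK6. There were 4 messenger RNA libraries, 2 for each treatment, and the dose is not in the labels used here. All libraries come from this single cell line, and the labels do not say whether the 2 libraries of a group were separate cultures, so the spread that p-values are measured against may be technical.

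TRiC is a pair of stacked rings, each built from the 8 subunits in a fixed order. A newly made protein enters the cavity, the rings close as ATP is bound and hydrolysed, and the protein folds inside. Actins and tubulins depend on this, as do many proteins with WD40 repeats, among them the mitotic activator CDC20. Around the ring the order of subunits is TCP1, CCT3, CCT6A, CCT8, CCT7, CCT5, CCT2 and CCT4. The side with TCP1, CCT2, CCT4 and CCT5 binds ATP more tightly than the side with CCT3, CCT6A, CCT7 and CCT8. The assembled complex holds equal numbers of each subunit.

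The libraries held 34774542 to 38865103 counts. Mitochondrially encoded transcripts took 8.68% and 21.7% of the counts in DMSO 1 and DMSO 2, and 5.79% and 3.13% in Rib_CA 1 and Rib_CA 2. The mesenchymal marker VIM lay at 3587 to 4221 CPM (counts per 1000000 counts, scaled between libraries by TMM). The epithelial gene CDH1 had 0 to 3 counts and the oestrogen receptor gene ESR1 had 4 to 23. Of the other genes listed as low or absent in this line, PGR had 16 to 58 counts, EPCAM 313 to 523 and ERBB2 2150 to 3414. Of 7 markers of other cell types, CD68, a lysosomal gene, had 5571 to 11138 counts, and the other 6 summed to 83 to 124 counts per library, with CD3E at 0 in all 4. In bulk RNA, fewer cells with a transcript and less of it per cell cannot be told apart.

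The stretches of DNA before the RefSeq starts of CCT8 and CCT3 are shown first because these 2 genes had the lowest and the highest fold change of the 8. Both are from RefSeq's promoter table (GRCh38.p14), read on the minus strand and ended where the first exon of the gene's GENCODE release 29 transcripts is met. CCT8 is at chr21:29073798-29073898 and CCT3 at chr1:156338466-156338542, and capitals mark a GC box, read here as CCGCCC, which the stretch of CCT3 does not hold. The CCT3 stretch lies outside that gene's exons but inside its span in GENCODE, which begins farther upstream than the RefSeq start.
CCT8: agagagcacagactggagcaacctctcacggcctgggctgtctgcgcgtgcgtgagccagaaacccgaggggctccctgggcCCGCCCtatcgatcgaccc
CCT3: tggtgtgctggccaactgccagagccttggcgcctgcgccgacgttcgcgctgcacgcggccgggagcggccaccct
The table had entries for 7 of the 8 subunits, 9 in all, and none for CCT6A. In the 250 bases before the RefSeq start, searched on both strands, CCT8 held 1 GC box (GGGCGG) and 1 CCAAT box (CCAAT), and CCT3 held 1 GC box and 2 CCAAT boxes. Of all 35116 windows of that length, 42.6% held a GC box and 32.0% a CCAAT box. A strict heat shock element, which is GAA, TTC and GAA with 2 free bases after each of the former 2 units, was in none of the 9 subunit entries and in 0.441% of all windows. An ETS core (CCGGAAG) was in 1 entry, of CCT2, and in 8.52% of all windows. The windows of 250 bases run on past the first GENCODE exon base, which comes after 101 bases for CCT8 and after 77 for CCT3. The GC box of CCT8 lies before that base, and the other boxes of CCT8 and CCT3 lie past it. The window of CCT5 (chr5:10250287-10250536) begins inside an exon, past the GENCODE start of the gene at 10249921. It holds no DNA upstream of that start, so the search did not cover such DNA for CCT5, nor any for CCT6A. These matches describe the letters of the windows and nothing more.

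No subunit passed the test between Rib_CA and DMSO. The edgeR test called 0 of 8 subunits in either direction, where 7.13% of the 13667 genes tested had an adjusted p under 0.05, 2.01% upward and 5.11% downward. DESeq2 called 2 subunits, both lower, and limma-voom called 0. At an unadjusted p under 0.05 there were 3 subunits (CCT2, CCT6A and CCT8), all with lower means, where 14.7% of all genes reached that limit downward. The fitted log2 fold changes ran from -1.07 for CCT8 to 0.46 for CCT3, with standard errors of 0.26 to 0.31. Their median was -0.47, beside 0.03 for all genes tested. In 5 of 8 subunits both Rib_CA libraries lay below both DMSO libraries, in 2 both lay above, and in 1 the groups overlapped. Over all genes tested, 28.4% lay apart downward and 30.4% upward. Summed over the 8 genes, the level was 2536 and 1899 CPM in DMSO 1 and 2, and 1963 and 1811 CPM in Rib_CA 1 and 2, so that the groups overlapped.

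**Figure D1:**
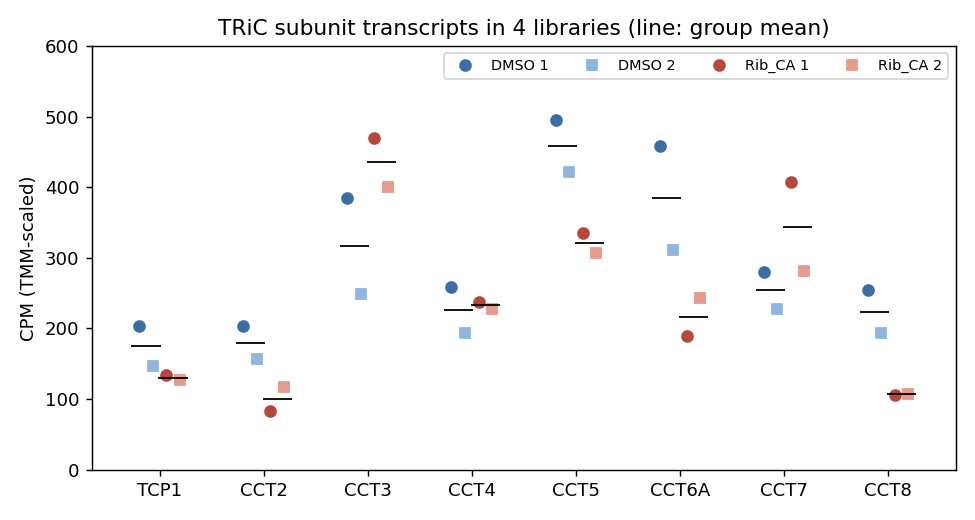
TMM-scaled CPM (vertical axis) of each TRiC subunit in the 2 DMSO libraries (blue) and the 2 Rib_CA libraries (red), with a line at each group mean. CCT8, CCT6A, CCT2, CCT5 and TCP1 lie lower in Rib_CA, CCT3 and CCT7 lie higher, and the groups overlap for CCT4.

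The first 4 genes belong to the side that binds ATP tightly. TCP1, the founding member of the family, lies on chromosome 6 (159778498 to 159789749, GRCh38, minus strand). TCP1 stood at 204 and 146 CPM in DMSO 1 and 2, and at 134 and 127 CPM in Rib_CA 1 and 2. The Rib_CA libraries were both lower, but DMSO 2 stood closer to them than to DMSO 1. The log2 fold change was -0.42 ± 0.28 (SE; edgeR adjusted p = 0.361). Of its exonic bases, 8.05% are shared with the thiolase gene ACAT2 on the opposite strand, and whether the counting used strand is not given in the sources used here.

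CCT2, which also acts as a receptor that delivers protein aggregates to autophagy, lies on chromosome 12 (69585334 to 69601570, plus strand). It stood at 203 and 157 CPM in DMSO and at 83.6 and 117 CPM in Rib_CA. The groups did not overlap, and Rib_CA 1 was the lowest of the 4 libraries. The log2 fold change was -0.84 ± 0.30 (SE; edgeR adjusted p = 0.127). Without Rib_CA 2 the log2 fold change was -1.11 and CCT2 passed (edgeR adjusted p = 0.0336), as it did in DESeq2 (adjusted p = 0.0472). It was -0.65 both without DMSO 1 (edgeR adjusted p = 0.591) and without Rib_CA 1 (0.119).

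CCT4, a gene mutated in a rat sensory neuropathy, lies on chromosome 2 (61868089 to 61888804, minus strand). Its levels were 259 and 194 CPM in DMSO and 238 and 228 CPM in Rib_CA. Both Rib_CA libraries lay between the DMSO libraries, and the log2 fold change was 0.04 ± 0.27 (SE; edgeR adjusted p = 0.944). It was the subunit whose sign depended on the libraries used: -0.16 without DMSO 2, -0.03 without Rib_CA 1 and 0.26 without DMSO 1. Of its exonic bases, 9.72% are shared with an antisense gene outside the table and 2.86% with COMMD1, both on the opposite strand.

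CCT5, mutated in a human hereditary sensory neuropathy, lies on chromosome 5 (10249921 to 10266412, plus strand). It stood at 495 and 422 CPM in DMSO and at 336 and 306 CPM in Rib_CA. These groups lay apart with a gap larger than the difference between the libraries of either group, and the log2 fold change was -0.51 ± 0.26 (SE; edgeR adjusted p = 0.247). An antisense gene outside the table covers 30.1% of its exonic bases.

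The other side of the ring held both ends of the range. CCT8, whose raised expression is known from pluripotent stem cells, lies on chromosome 21 (29055805 to 29073797, minus strand). CCT8 had counts of 8811 and 6372 in DMSO and of 4133 and 4629 in Rib_CA, which are 254 and 193 CPM against 105 and 108 CPM. Both Rib_CA libraries were far below either DMSO library, and they differed from each other by less than the DMSO libraries did. The mean went from 224 ± 42.9 to 107 ± 1.45 CPM (SD, n = 2), 2.10-fold lower, with a log2 fold change of -1.07 ± 0.27 (SE; edgeR adjusted p = 0.0623). CCT8 stood close to the threshold. It passed in DESeq2 (adjusted p = 0.00336) and in edgeR without a filter on low counts (adjusted p = 0.0494). It did not pass in limma-voom (adjusted p = 0.0641), nor in edgeR with total counts alone (0.118) or the replicate number as a block (0.114). With an offset for transcript GC content, alone or with length, it did not pass either (edgeR adjusted p = 0.139 and 0.102). The log2 fold change was -0.87 without DMSO 1, -1.26 without DMSO 2, and -1.09 without Rib_CA 1 or without Rib_CA 2.

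CCT6A, which has a testis-restricted relative in CCT6B, lies on chromosome 7 (56051630 to 56063989, plus strand). CCT6A stood at 458 and 311 CPM in DMSO and at 190 and 243 CPM in Rib_CA. The groups lay apart, and each was spread widely. The log2 fold change was -0.83 ± 0.31 (SE; edgeR adjusted p = 0.139), and it ranged from -0.53 without DMSO 1 to -1.09 without DMSO 2, with no call on leaving out any 1 library. CCT6B had 28 to 60 counts per library, about 1 CPM, and did not pass (log2 fold change 0.67 ± 0.53 SE; edgeR adjusted p = 0.442).

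CCT3, next to TCP1 and CCT6A in the ring, lies on chromosome 1 (156308968 to 156367873, minus strand). CCT3 stood at 384 and 248 CPM in DMSO and at 470 and 401 CPM in Rib_CA. Both Rib_CA libraries were higher, but Rib_CA 2 exceeded DMSO 1 by little. The log2 fold change was 0.46 ± 0.31 (SE; edgeR adjusted p = 0.372), and it was 0.18 without DMSO 2 and 0.81 without DMSO 1.

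CCT7, between CCT8 and CCT5 in the ring, lies on chromosome 2 (73233420 to 73253021, plus strand). Its levels were 280 and 228 CPM in DMSO and 407 and 281 CPM in Rib_CA. DMSO 1 and Rib_CA 2 were nearly level, so the separation of the groups rested on a narrow gap. The log2 fold change was 0.44 ± 0.30 (SE; edgeR adjusted p = 0.378), and it was 0.11 without Rib_CA 1.

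**Figure D2:**
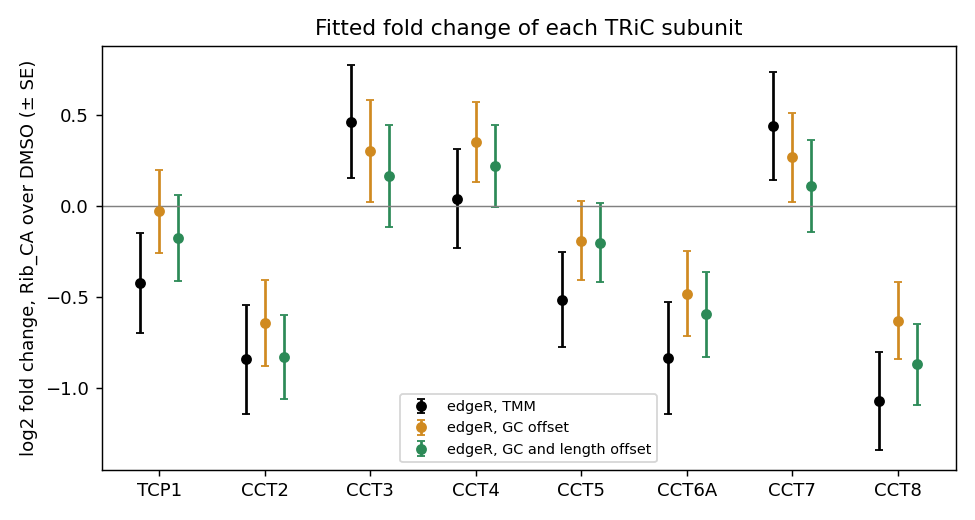
Log2 fold change of Rib_CA over DMSO (vertical axis, bars are SE) for each subunit from edgeR with TMM scaling (black), with an offset for transcript GC content (orange) and with an offset for GC content and length (green). CCT8 moves from -1.07 to -0.63 and -0.87, and CCT3 from 0.46 to 0.30 and 0.16.

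The balance between subunits was compared per length, as CPM per kilobase of the longest protein-coding transcript. In DMSO the means ran from 69.99 ± 16.3 CPM per kb for TCP1 through 82.2 ± 15.0 for CCT2, 89.8 ± 18.2 for CCT4, 112 ± 21.4 for CCT8, 125 ± 14.01 for CCT5, 125 ± 18.04 for CCT7 and 141 ± 38.2 for CCT6A to 147 ± 44.6 for CCT3 (SD, n = 2). Neighbours in this order differed by less than the larger of their SDs, except CCT4 and CCT8, whose means differed by about that SD, and the highest mean was 2.10 times the lowest. In Rib_CA the order began with CCT2 (45.9 ± 10.9), TCP1 (52.2 ± 1.73) and CCT8 (53.1 ± 0.724), which lay within the SD of CCT2. CCT6A (79.5 ± 13.8), CCT5 (87.4 ± 5.63) and CCT4 (92.4 ± 2.85) followed, each within an SD of the next. CCT7 (169 ± 43.6) and CCT3 (203 ± 22.8) stood above the other 6, and the highest mean was 4.41 times the lowest.

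Shares of the summed CPM per kb do not depend on how the libraries are scaled. CCT3 took 17.5% and 15.2% of the sum in DMSO 1 and 2, and 26.7% and 24.98% in Rib_CA 1 and 2. CCT7 took 13.5% and 14.8% in DMSO and 24.5% and 18.6% in Rib_CA. Together these 2 subunits made up 30.9% and 29.9% of the sum in DMSO and 51.2% and 43.5% in Rib_CA. They were added up because both lay higher in Rib_CA, so the gap in their joint share was fixed by this choice. The share of CCT8 went the other way, from 12.4% and 12.7% in DMSO to 6.43% and 7.19% in Rib_CA. That of CCT6A was 16.5% and 15.0% in DMSO and 8.52% and 12.0% in Rib_CA. CCT4, whose CPM overlapped, held 10.0% and 10.1% in DMSO and 11.5% and 12.1% in Rib_CA. Per kb, there were 1.41 and 1.20 CCT3 transcripts to each of CCT8 in DMSO, and 4.16 and 3.48 in Rib_CA. CCT3 and CCT8 were paired because they had the highest and the lowest fold change, so the gap in this ratio was also fixed by the choice. The ratio of CCT3 to CCT7 was 1.30 and 1.03 in DMSO and 1.09 and 1.35 in Rib_CA, so that these 2 genes kept no separate order by group. The share of every subunit lay apart between groups, that of CCT4 included, so such a gap singles out no subunit. No test of the shares was made.

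**Figure D3:**
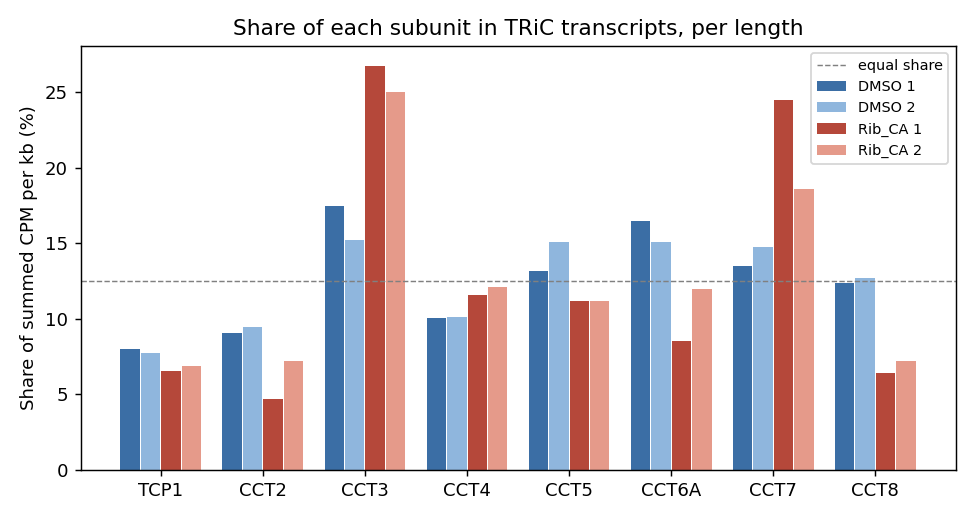
Share of each subunit (vertical axis, percent) in the summed CPM per kb of the 8 TRiC genes, 1 bar per library, with a dashed line at an equal share. The bars of CCT3 reach 26.7% and 24.98% in Rib_CA against 17.5% and 15.2% in DMSO, while those of CCT8 are about 12% in DMSO and 6.43% and 7.19% in Rib_CA.

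Transcript GC content moved with these differences. CCT3 and CCT7 had the highest GC content of the 8, at 51.2% and 51.3%, and the other 6 lay between 43.1% (CCT8) and 45.9% (CCT2). Over all genes tested, the median log2 fold change was -0.26 for 1604 genes with 43 to 46% GC and 0.16 for 395 genes with 51 to 52% GC. CCT4, with 44.7% GC, lay above the first of these medians, and CCT8, CCT6A and CCT2 lay below the lower quartile of that group, -0.77. With each library's smooth trend over GC content taken out, the log2 fold changes were -0.64 for CCT2, -0.63 for CCT8, -0.48 for CCT6A, -0.19 for CCT5, -0.03 for TCP1, 0.27 for CCT7, 0.30 for CCT3 and 0.35 for CCT4, and the median of the 8 was -0.11. With GC content and length taken out the median was -0.19, the range was -0.87 (CCT8) to 0.22 (CCT4), and CCT3 and CCT7 stood at 0.16 and 0.11. The lowest edgeR adjusted p of the 8 was 0.139 in the former fit and 0.102 in the latter. Such an offset also removes real changes that follow GC content, and what part GC content has in the differences between subunits was not tested further.

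**Figure D4:**
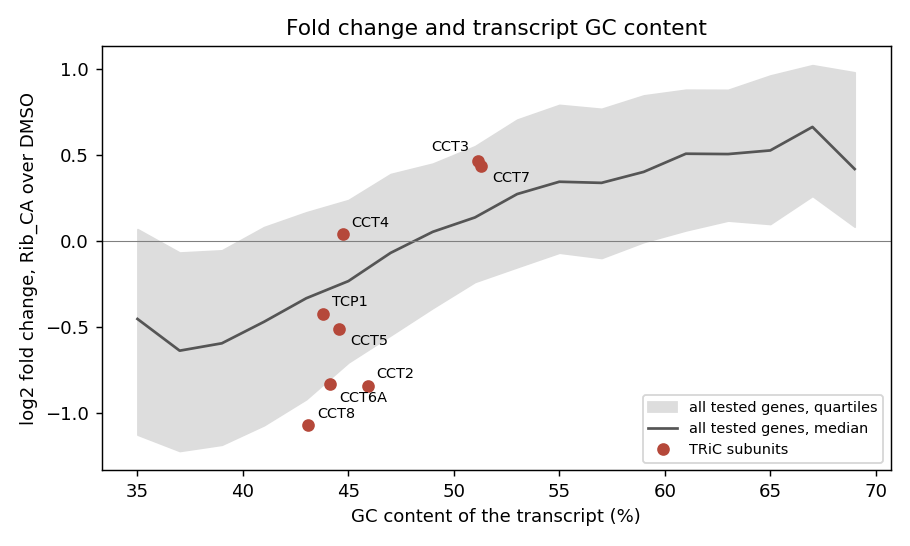
Log2 fold change of Rib_CA over DMSO (vertical axis) against the GC content of the longest protein-coding transcript (horizontal axis, percent) for the 8 subunits (red), with the median (line) and quartiles (band) of all genes tested in bins of 2 percentage points. CCT3 and CCT7 lie at about 51% GC and above 0, and the other 6 lie at 43.1 to 45.9%.

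The direction of the difference between the DMSO libraries was also shared by the subunits, which was not so for the Rib_CA libraries. All 8 were lower in DMSO 2 than in DMSO 1, by 0.23 (CCT5) to 0.63 (CCT3) on the log2 scale, with a median difference of -0.40. Of all genes tested, 59.4% were lower in DMSO 2, with a median difference of -0.09. DMSO 2 is the library with the largest mitochondrial share, and the part of that share in this difference was not tested. Scaling without mitochondrially encoded genes left the median fold change of the 8 at -0.44. Between the Rib_CA libraries 5 subunits were lower in Rib_CA 2 and 3 higher. The median log2 fold change of the 8 was -0.28 without DMSO 1 and -0.64 without DMSO 2.

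The genes whose profile over the 4 libraries was most like the mean profile of the 8 subunits were the folate enzyme gene MTHFD1, HEXIM1, which encodes an inhibitor of the elongation kinase P-TEFb, RIN2, the ribosomal protein gene RPS6, and LTA4H, which encodes an enzyme of leukotriene synthesis. They were the nearest of 2165 genes outside the lists whose mean reached 100 CPM, by the root mean square difference of log2 CPM about each gene's own mean, which was 0.03 for MTHFD1 and 0.06 for LTA4H. Among the subunits TCP1 was closest to the mean profile (0.04) and CCT3 farthest (0.43). Of the 2165 genes, 1175 lay no farther from the mean profile than CCT3 did, so a likeness within that distance was common.

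Among the partners of TRiC, 1 gene passed the test. Prefoldin takes up nascent actin and tubulin and passes them to TRiC. Of 9 prefoldin and prefoldin-like genes tested, 1 rose, 0 fell and 8 did not pass, where 2.01% of all genes were called higher, and the median log2 fold change was 0.32. At an unadjusted p under 0.05, 3 of the 9 were higher, where 13.7% of all genes were. The gene that rose was PDRG1, a prefoldin-like gene, at 18.9 and 16.7 CPM in DMSO and 52.04 and 51.69 CPM in Rib_CA. The groups were well apart, with a log2 fold change of 1.54 ± 0.27 (SE; edgeR adjusted p = 0.0297). The log2 fold change stayed at 1.63 without DMSO 1 and 1.45 without DMSO 2. It was 1.39 with the GC offset, 1.22 with the GC and length offset, and 1.23 with the replicate block added to the latter. In each of these fits the call was lost, with an edgeR adjusted p of 0.0672, 0.0828 and 0.0887 in those with an offset. The prefoldin subunit gene PFDN5 stood at 58.7 and 50.7 CPM in DMSO and at 86.5 and 117 CPM in Rib_CA without passing (edgeR adjusted p = 0.0978). Of 3 phosducin-like cochaperone genes tested, which help TRiC with its substrates, 0 passed at the adjusted limit in edgeR and 0 at an unadjusted p under 0.05, where 28.4% of all genes reached the latter in either direction, and their median was -0.04. PDCL2 had no count. Of 4 tested among the TRiC-like and tissue-restricted relatives, 0 passed in edgeR and 1 had an unadjusted p under 0.05, with a median of -0.13. CCT8L2 had no count.

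Transcripts of proteins that TRiC folds gave no call. Of 13 actin and tubulin genes tested, 0 passed in edgeR and 1 reached an unadjusted p under 0.05, against 28.4% of all genes, and the median log2 fold change was -0.03. The cytoplasmic actin gene ACTB stood at 4001 and 3422 CPM in DMSO and at 5649 and 2824 CPM in Rib_CA. The Rib_CA libraries lay on either side of DMSO. Those of ACTG1 did so too, with 1177 and 1339 CPM in DMSO and 1722 and 736 CPM in Rib_CA, though its DMSO libraries had the opposite order. The tubulin gene TUBB had 2666 and 2655 CPM in DMSO and 2749 and 3177 CPM in Rib_CA (log2 fold change 0.16 ± 0.32 SE; edgeR adjusted p = 0.792). TUBA1B had 1536 and 1906 CPM in DMSO and 1635 and 946 CPM in Rib_CA (log2 fold change -0.42 ± 0.37 SE; edgeR adjusted p = 0.500). Of 6 tubulin folding cofactor genes tested, which take over tubulin after TRiC, 0 passed in edgeR and 1 had an unadjusted p under 0.05, and the median was 0.11. Of 16 other substrate genes, CDC20 and PLK1 among them, 0 passed in edgeR and 1 had an unadjusted p under 0.05, and the median was 0.05. These counts at the unadjusted limit are below the share of all genes.

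Among other chaperones, the genes of the heat shock response contained the calls. Many of them are under the transcription factor HSF1. Of 18 tested, 5 were lower, 0 were higher and 13 did not pass, with a median log2 fold change of -0.84: HSP90AA1 (-2.76), HSPH1 (-2.29), CHORDC1 (-2.22), HSPA4L (-2.01) and DNAJA1 (-1.67) fell. With the GC offset, under which no gene of the table was called, HSP90AA1 stood at -2.47 and the other 4 at -1.61 to -1.15. The GC and length offset, also without any call, left HSP90AA1 at -2.49 and the other 4 at -1.56 (HSPH1) to -0.97 (HSPA4L). With the replicate block and the GC and length offset together, HSP90AA1 and HSPH1 passed (edgeR adjusted p = 0.0401 and 0.0497). HSPA4L, DNAJA1 and CHORDC1 did not pass there (edgeR adjusted p = 0.120, 0.0624 and 0.0594). The background for a lower call was 5.11% of genes. HSPA4L and CHORDC1 also lost their calls without DMSO 1, and DNAJA1 without DMSO 1 or DMSO 2. HSF1 itself had 121 and 169 CPM in DMSO and 216 and 105 CPM in Rib_CA, with the groups overlapping. The mitochondrial chaperonin is the relative of TRiC inside mitochondria. Its gene HSPD1 stood at 478 and 364 CPM in DMSO and at 159 and 320 CPM in Rib_CA (log2 fold change -0.81 ± 0.39 SE; edgeR adjusted p = 0.222), and its log2 fold change was -1.41 without Rib_CA 2 (adjusted p = 0.0191) but -0.43 without Rib_CA 1 (adjusted p = 0.290). HSPE1, which encodes its lid, stood at 155 and 100.1 CPM in DMSO and at 99.3 and 174 CPM in Rib_CA (edgeR adjusted p = 0.890). Whether TRiC subunits differ from these lists was not tested.

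**Figure D5:**
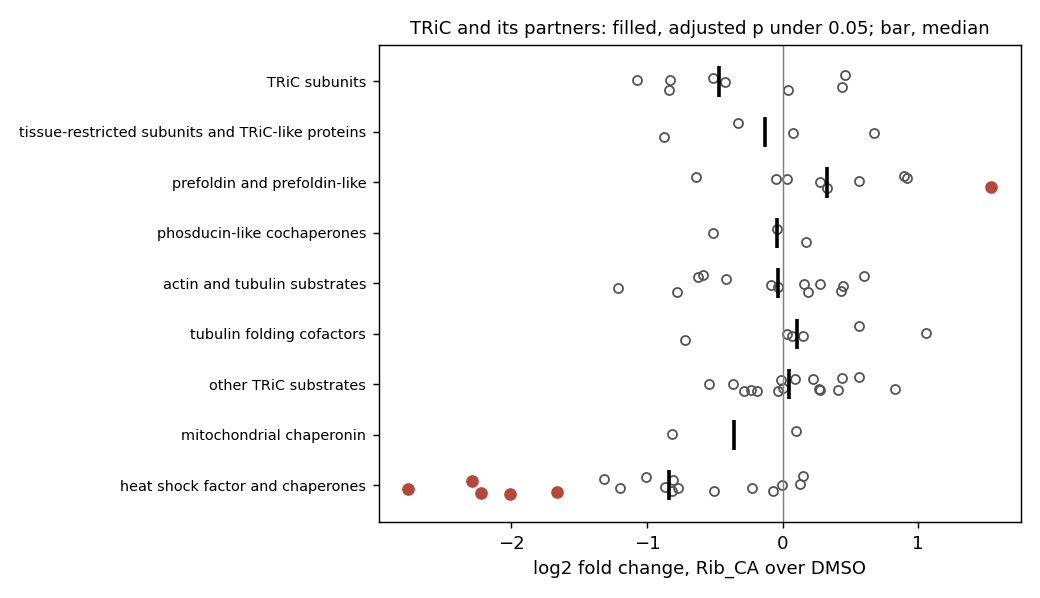
Log2 fold change of Rib_CA over DMSO (horizontal axis) for each tested gene of the TRiC list and of 8 lists of partners, substrates and other chaperones. Filled points passed at an adjusted p under 0.05 in edgeR, and bars mark medians, which are -0.47 for TRiC subunits, 0.32 for prefoldin genes and -0.84 for heat shock genes.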

How the data were processed

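The authors deposited unnormalised counts for 20263 human Ensembl gene IDs in 4 libraries. GRCm38 and mm10, the builds in the submitters' processing notes, are of mouse and cannot belong to the human IDs. Not given in the sources used here are the aligner, counting tool, use of strand and treatment of reads that fit several places. Of values from 1 to 10, 67.7 to 70.7% were even, so counts may not be independent. GENCODE lists pseudogenes named after TCP1, CCT4, CCT5, CCT6A, CCT7 and CCT8, and none is in the table.

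Symbols were found for 20148 IDs. Positions, lengths and GC contents (longest protein-coding transcript) came from GENCODE release 29 (GRCh38). In R 4.3.3, edgeR 4.0.16 tested counts after filterByExpr (minimum count 10, total 15) and TMM scaling, by the quasi-likelihood test over 13667 genes with Benjamini-Hochberg adjustment at 0.05 and 2 residual degrees of freedom. The common biological coefficient of variation was 0.314, which limits the precision more than depth does. SE is the absolute log2 fold change over the root of F. Alternatives used DESeq2 1.42.0, limma-voom 3.58.1, other scalings and filters, each library left out, the replicate number as a block, and offsets from smooths (mgcv 1.9.3, 6 basis functions) over transcript GC content, alone or with length. The members, lists and tests were chosen with earlier results of these data known. Named genes are the 8 subunits, list members that passed, HSPD1, HSPE1, HSF1, ACTB, ACTG1, TUBB and TUBA1B, and the 5 nearest profiles. PFDN5, PLK1, CDC20, CCT6B and TXNDC9 were named after their values were seen. A list of substrates was used without 1 of its members, a gene not reported here.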

Additional observations from a re-analysis of the deposited data

How the results depend on the processing

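Over 16 alternatives the 8 subunits gave 128 values, of which 7 gained a call, 0 lost one and 2 had the opposite sign (CCT4 without DMSO 2 and without Rib_CA 1). That 0 lost a call was fixed in advance, because the main fit called no subunit. No subunit was called higher in any of these alternatives. Subunits called lower numbered 1 without a filter on low counts, 2 in DESeq2 and 0 to 2 with 1 library left out. Genes called over the whole table were 328 lower with total counts alone, 448 higher without a filter, 418 higher with a minimum of 5 CPM, and 1043 higher and 1514 lower in DESeq2. With 1 library left out, 36 to 1234 were higher and 137 to 1634 lower. A group left with 1 library then borrows its spread from the other group. Total counts alone moved the median of all genes by 0.20, and the median of the subunits stayed below it by about the same amount (-0.52 against -0.50). With the GC offset and with the GC and length offset, 0 genes were called higher and 0 lower in edgeR, with 3604 and 3377 at an unadjusted p under 0.05, and the median of the subunits was -0.11 and -0.19. The cause of these changes was not tested. With the replicate number as a block, 260 genes were higher and 687 lower and no subunit was called. The block with the GC and length offset gave 67 higher and 62 lower, and a subunit median of -0.19. Deviations of same-numbered libraries from their group means correlated at -0.19 over genes, so same-numbered libraries did not deviate together. A block with the pairing crossed, chosen after seeing the data, gave 724 higher, 1267 lower and 1 subunit lower.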

Other observations

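HSPD1 and HSPE1 lie head to head and are transcribed from a shared promoter region, and neither passed the test (edgeR adjusted p = 0.222 and 0.89). HSPD1 had 3.08 and 3.64 times the CPM of HSPE1 in DMSO 1 and 2, and 1.60 and 1.84 times in Rib_CA 1 and 2, with no overlap between groups. Such gaps were common among single genes, of which 28.4% lay apart downward and 30.4% upward. The share of gene pairs whose ratio lies apart was not counted, and no test of the ratio was made. The fitted log2 fold changes were -0.81 for HSPD1 and 0.10 for HSPE1, and they lay closer together with the GC and length offset, at -0.65 and -0.32. The phosducin-like gene TXNDC9 had 17.8 CPM in Rib_CA 1 and 60.1 CPM in Rib_CA 2, a wider gap than between its DMSO libraries (42.5 and 26.7 CPM).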
